A study of Mus musculus with 5 samples.

Results

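Oligodendrocyte lineage genes were examined in mouse striatum through 5 genes: the myelin genes Mbp, Cnp and Mag and the precursor genes Vcan and Pdgfra. The genes were chosen by name, with earlier results of these data known. Each was read from the counted feature whose intervals share the most bases with the gene's exons in GENCODE M21, an annotation of the mouse genome build GRCm38. They are 5 of 53700 gene features, and all 5 passed the filter on low counts. The data are RNA sequencing counts of striatal homogenate from adult mice: 2 libraries of the Adcy5R419W line (Adcy5 KI, replicates 1 and 3) and 3 libraries of wild-type littermates (WT, replicates 1, 2 and 3). Adcy5 encodes an adenylyl cyclase, the enzyme that makes cAMP, and is strongly expressed in striatal neurons. The sources used here do not say whether the KI animals carried 1 or both alleles, nor the sex and exact age of the animals. The labels do not tie libraries to separate animals, so the p-values rest on a spread among libraries that may be technical. The comparison asks how transcripts of the lineage differ between KI and WT striatum.

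Oligodendrocytes wrap axons in myelin, and in the adult brain they arise from precursor cells that go on dividing. Precursors carry a receptor for platelet-derived growth factor and a coat of chondroitin sulfate proteoglycans, and they lose both as they mature and switch on the genes of myelin. In the striatum much of the myelin lies in the fibre bundles of the internal capsule that cross the tissue. Mbp encodes myelin basic protein, which holds the cytoplasmic faces of compact myelin together. Cnp encodes a phosphodiesterase of non-compact myelin, and Mag encodes an adhesion protein on the innermost myelin wrap, facing the axon. Vcan encodes versican, a large chondroitin sulfate proteoglycan, and Pdgfra encodes the growth factor receptor by which precursors are recognised. Fibroblast-like cells of vessels and meninges also express Vcan and Pdgfra.

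Genes were named by position. Per the file headers the features lie at GRCm39 positions, whereas the counts pile up where GRCm38 exons lie: the 33953 features with no GRCm38 exon at their positions held 1.06% of all counts. The features labelled Mag and Pdgfra held 39 and 9 counts over the 5 libraries and cover 0 exon bases of those genes. The features over the GRCm38 exons of Mag and Pdgfra held 10581 and 1422 counts. Among the 5 genes Mbp alone was read from the feature that carries its own name. Total counts lay between 6595105 and 7910584 per library, and levels are given in CPM, counts scaled to a common library total. Where a feature has 0 counts its level may still be as high as 0.379 to 0.455 CPM, which is 3 counts of the total and covers counting error only. No feature covers exons of Adcy5, so the genotype labels could not be checked against the gene, and 0 features cover Drd1 or Drd2. Of 13 markers of striatal spiny neurons 8 were measured, with Penk and Ppp1r1b the highest, and their summed level was 11876 and 13326 CPM in KI and 14539 to 19045 CPM in WT.

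Only a small part of each gene was read. The Mbp feature covers 237 bases (2.8%) of the gene's exons on chromosome 18, at exons 3 to 5 of the transcript Mbp-209, which hold 102, 36 and 33 of them; the feature touches 12 of the 14 coding transcripts. It also covers 222 exon bases of the neighbour Zfp236. A larger stretch of Zfp236, 506 bases in another feature, held 219 and 242 counts in KI and 203 to 277 counts in WT, against 28969 and 32229 counts in KI and 27664 to 39739 counts in WT for the Mbp feature. The Cnp feature, labelled Dhx58os in the files, covers 346 bases (9.51%) of the Cnp exons, all in the 3′ untranslated part of exon 4 on chromosome 11 between positions 100580911 and 100581636. The Mag feature, labelled Gm37292, is chr7:30907782-30908539. All 758 of its bases belong to Mag-202, a transcript with a retained intron, and 175 of them are coding sequence in exon 7 of Mag-203. The Cnp and Mag features cover exons of no other gene, but strand was ignored in counting.

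Vcan and Pdgfra each had 2 features that share no bases, so each gene was measured from different stretches in the same libraries. For Vcan the feature with the larger overlap, labelled Hapln1, covers 747 bases (5.17%) at the 3′ end of exon 8 (chr13:89688285-89689031). Exon 8 is 5217 bases long, encodes the beta region to which glycosaminoglycan chains attach, and is found in 2 of the 8 coding transcripts. The principal transcript Vcan-201 holds none of these 747 bases. The second Vcan feature, labelled Gm8546, covers the whole of exon 3 (chr13:89725289-89725663, 375 bases), which 6 of the 8 coding transcripts carry. For Pdgfra the first feature, labelled Chic2, covers 1488 bases (14.8%) of all annotated Pdgfra exons on chromosome 5. Of these, 61, 318, 261 and 22 bases belong to exons 2, 3, 4 and 19 of the principal transcript Pdgfra-201, and the rest lies beside exon 2, in a transcript with a retained intron and in the first exon of a shorter form. The second feature, labelled Gm42576, covers 1032 bases, of which 111, 154 and 167 belong to exons 14, 15 and 16 of Pdgfra-201 and the rest to the ends of shorter forms. Exon bases of the gene make up 2.8% of the Mbp feature, 21.7% of the Cnp feature, 12.7% and 29.7% of the Vcan features and 15.3% and 36.3% of the Pdgfra features, so reads from introns or from beside these genes can count too.

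The stretches shown are those on which the reading of a gene turns: the coding part of the Mag feature, the Vcan exons that differ between the features, and Pdgfra exons from each feature. They are GENCODE M21 transcript sequence (GRCm38), 5′ to 3′ on the strand of the gene, and capitals mark bases inside the counted feature. Mag exon 7 is whole (chr7:30908365-30908622, minus strand). Vcan exon 8 is a window of 120 bases across the edge of the feature (chr13:89688972-89689091, minus strand), and Vcan exon 3 is its first 120 bases (chr13:89725544-89725663, minus strand). Pdgfra exon 15 (chr5:75181522-75181675, plus strand) lies wholly in the second feature, and exon 19 (chr5:75187863-75187974, plus strand) has 22 bases in the first.
Mag exon 7: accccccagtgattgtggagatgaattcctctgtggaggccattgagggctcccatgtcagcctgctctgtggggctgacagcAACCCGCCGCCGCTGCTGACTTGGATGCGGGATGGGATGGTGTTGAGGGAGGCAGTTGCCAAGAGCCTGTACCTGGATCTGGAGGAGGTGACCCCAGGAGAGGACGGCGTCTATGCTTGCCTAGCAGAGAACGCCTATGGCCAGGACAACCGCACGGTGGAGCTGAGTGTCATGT
Vcan exon 8: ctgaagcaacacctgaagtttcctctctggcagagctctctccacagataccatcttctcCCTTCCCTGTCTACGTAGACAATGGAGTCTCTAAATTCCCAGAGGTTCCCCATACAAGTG
Vcan exon 3: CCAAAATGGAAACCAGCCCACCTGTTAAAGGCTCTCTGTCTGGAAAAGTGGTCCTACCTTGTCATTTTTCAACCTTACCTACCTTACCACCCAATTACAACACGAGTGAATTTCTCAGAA
Pdgfra exon 15: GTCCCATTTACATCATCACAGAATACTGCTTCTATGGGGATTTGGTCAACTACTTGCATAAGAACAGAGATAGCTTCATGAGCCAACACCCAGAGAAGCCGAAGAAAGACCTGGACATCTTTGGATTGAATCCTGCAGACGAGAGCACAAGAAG
Pdgfra exon 19: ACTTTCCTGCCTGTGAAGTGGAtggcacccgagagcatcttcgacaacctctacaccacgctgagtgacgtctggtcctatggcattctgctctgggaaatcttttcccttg

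Myelin genes stood far above precursor genes. Per 1000 covered exon bases, the level of Mbp was 16701 ± 196 CPM in KI and 19348 ± 2321 CPM in WT (SD; n = 2 and n = 3, as for every mean below). On that scale Cnp had 2383 ± 19.2 CPM in KI and 2905 ± 514 CPM in WT. Mag had 332 ± 15.4 CPM per 1000 bases in KI and 406 ± 70.2 CPM in WT. The order Mbp, Cnp, Mag, with both precursor genes below, held in every library. Pdgfra had 29.8 ± 4.78 CPM per 1000 bases in KI and 23.1 ± 1.56 CPM in WT by its first feature. Vcan had 7.84 ± 4.16 CPM in KI and 17.3 ± 6.19 CPM in WT by its first feature, and 18.4 ± 4.1 CPM in KI and 13.7 ± 8.99 CPM in WT by its second. In WT the means of Vcan and Pdgfra on their first features differed by less than the SD of Vcan. These per-length levels are rough, because a fragment counts when it only touches a feature and intron bases are not in the length.

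In KI striatum the 3 myelin genes were lower on average, Mbp by 1.16-fold and Cnp and Mag by 1.22-fold, and none of the differences passed the test. Of the precursor genes, Pdgfra averaged 1.29-fold higher in KI and Vcan, by the feature over exon 8, 2.19-fold lower, and neither passed. Of 13665 tested features 14 (0.102%) had an adjusted p under 0.05 in edgeR's quasi-likelihood test, and 0 of the 5 genes were among them. DESeq2 and limma voom also called 0 of the 5, but DESeq2 gave Vcan no adjusted p. At an unadjusted p under 0.05 in edgeR were 3 of them (Mbp, Cnp and Vcan), as were 6.4% of all tested features. Both KI libraries lay below all 3 WT libraries for 4 of the genes (Mbp, Cnp, Mag and Vcan), an arrangement found in 11.1% of all tested features. They lay above all 3 for Pdgfra, as in 11.3% of features. In homogenate, a level does not tell the number of oligodendrocytes from the myelin RNA per cell. The causes of these differences were not tested.

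**Figure D1:**
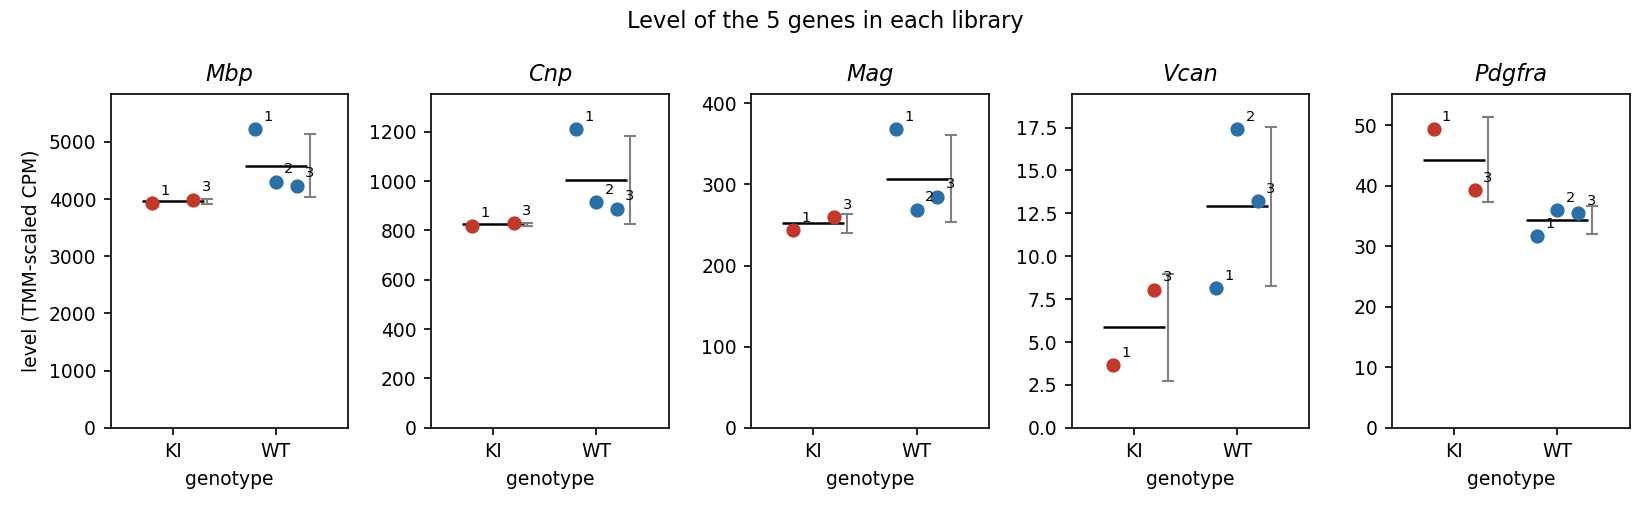
Level of each gene (TMM-scaled CPM, linear axis from 0) in each library, KI left and WT right; numbers are replicates, the horizontal line is the genotype mean and the grey bar ± 1 SD (n = 2 and n = 3). For Mbp, Cnp and Mag the KI points lie close together below the WT points, and WT replicate 1 stands above all others.

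Mbp had 3925 and 3991 CPM in KI replicates 1 and 3, against 5220, 4303 and 4234 CPM in WT replicates 1, 2 and 3. The KI libraries lay close together, and WT replicate 1 stood above the other WT libraries by more than these stood above KI. The log2 fold change was -0.21 (SE 0.09, edgeR adjusted p = 0.74).

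Cnp had 820 and 829 CPM in the KI libraries, against 1210, 916 and 889 CPM in the WT libraries. The arrangement is that of Mbp, with WT replicate 1 high and the other WT libraries a little above KI. Its log2 fold change was -0.29 (SE 0.13, edgeR adjusted p = 0.763).

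Mag had 244 and 260 CPM in the KI libraries, against 368, 269 and 285 CPM in the WT libraries. KI replicate 3 and WT replicate 2 were near each other, and WT replicate 1 was again the highest. The log2 fold change was -0.29 (SE 0.14, edgeR adjusted p = 0.81). With WT replicate 1 left out, the log2 fold changes of Mbp, Cnp and Mag were -0.10, -0.13 and -0.13, each nearer to 0.

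The 3 myelin genes kept nearly constant ratios to each other. On the log2(CPM + 1) scale Cnp lay below Mbp by a difference of -2.26 and -2.27 in the KI libraries and -2.11, -2.23 and -2.25 in the WT libraries. Both KI values lay just below all WT values there, and WT replicate 1 was the least negative. Mag minus Mbp was -4.0 and -3.93 in KI and -3.82, -3.99 and -3.89 in WT. Mag minus Cnp was -1.75 and -1.67 in KI and -1.71, -1.76 and -1.64 in WT. For both differences that involve Mag the groups overlapped. The libraries differed in the level of the myelin genes as a group more than in the proportions among them.

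Vcan was read from few counts: 27 and 65 in KI and 62, 130 and 86 in WT by the feature over exon 8. In CPM that is 3.66 and 8.05 in KI, against 8.14, 17.4 and 13.2 in WT. KI replicate 3 and WT replicate 1 lay side by side at the border of the groups. The log2 fold change was -1.13 (SE 0.46, edgeR adjusted p = 0.673). It was -0.68 without KI replicate 1 and -1.81 without KI replicate 3.

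The feature over Vcan exon 3 gave the opposite sign. Its levels were 7.99 and 5.82 CPM in KI, against 5.25, 8.42 and 1.68 CPM in WT, with the groups overlapping. The log2 fold change was 0.42 (SE 0.59, edgeR adjusted p = 0.999). With the counts of both features added, Vcan had 11.7 and 13.9 CPM in KI and 13.4, 25.8 and 14.8 CPM in WT, and its log2 fold change was -0.50 (SE 0.34, edgeR adjusted p = 0.939). The difference between the exons was not tested.

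Pdgfra had 49.3 and 39.3 CPM in the KI libraries, against 31.7, 36.0 and 35.4 CPM in the WT libraries. The KI libraries were both higher, and they differed from each other by more than the WT libraries did. The log2 fold change was 0.37 (SE 0.20, edgeR adjusted p = 0.847). The second feature, at exons 14 to 16, had 33.2 and 21.4 CPM in KI and 21.3, 21.5 and 21.1 CPM in WT. There KI replicate 1 alone was high, and KI replicate 3 lay among the WT libraries. Its log2 fold change was 0.36 (SE 0.26, edgeR adjusted p = 0.956). With both features added the value was 0.36 (SE 0.17, edgeR adjusted p = 0.8), and without KI replicate 1 the first feature gave 0.19.

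**Figure D2:**
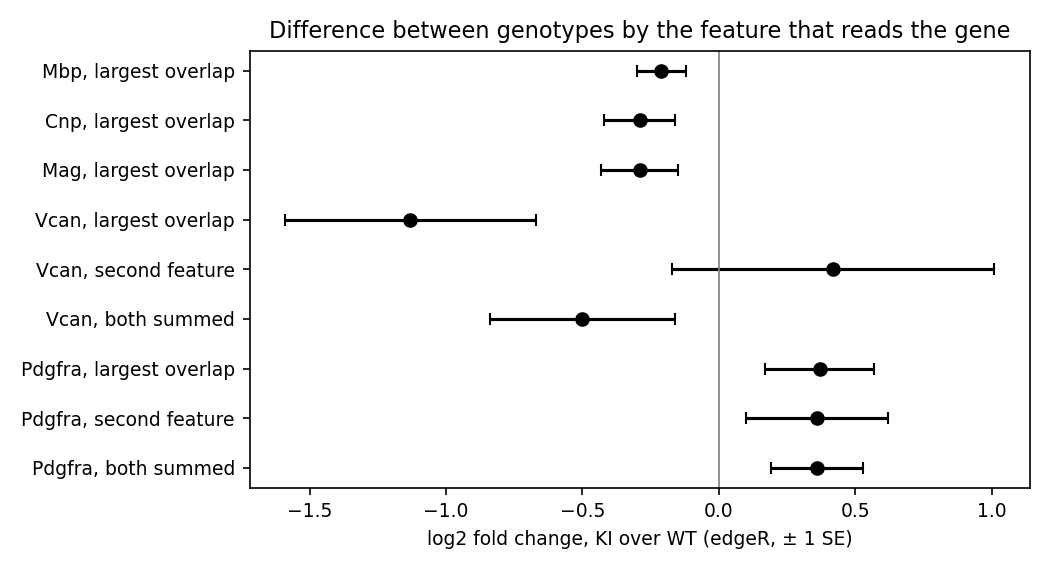
Log2 fold change of each gene, KI over WT, by edgeR, with bars of ± 1 SE; for Vcan and Pdgfra the features with the largest and the second largest exon overlap and their sum are shown. The Pdgfra points sit together at 0.37, 0.36 and 0.36, while the Vcan points fall on both sides of 0, at -1.13 and 0.42.

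With Vcan read at exon 8, the mean of the myelin genes minus that of both precursor genes did not separate the genotypes. The mean log2(CPM + 1) of Mbp, Cnp and Mag minus that of Vcan and Pdgfra was 5.91 and 5.64 in the KI libraries and 6.26, 5.29 and 5.50 in the WT libraries. The means were 5.78 ± 0.19 in KI and 5.68 ± 0.51 in WT, a difference of 0.09 that is smaller than the WT spread. The precursor genes pulled this value in opposite directions. Against Pdgfra alone it was 4.20 and 4.57 in KI and 5.34, 4.79 and 4.82 in WT, lower in both KI libraries, and the KI mean minus the WT mean was -0.60. Against Vcan alone it was 7.63 and 6.72 in KI and 7.18, 5.80 and 6.18 in WT, where the groups overlap and the KI mean is higher by 0.79. With the second Vcan feature in place of the first, the difference over all 5 genes was -0.69, an alternative chosen after seeing the data. These values combine chosen genes, so no test was run on them.

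Each library had its own pattern over the 5 genes. Relative to each gene's mean on the log2(CPM + 1) scale, KI replicate 1 was low for Mbp (-0.14), Cnp (-0.17) and Mag (-0.21), lowest for Vcan (-1.10) and highest for Pdgfra (0.37). KI replicate 3 lay nearer the mean, with Vcan at -0.15 and Pdgfra at 0.05. WT replicate 1 was the reverse of KI replicate 1 for the myelin genes and Pdgfra, with Mbp at 0.28, Cnp at 0.39, Mag at 0.38 and Pdgfra at -0.25. WT replicates 2 and 3 were within 0.10 of the mean for those genes and high for Vcan, at 0.88 and 0.50.

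**Figure D3:**
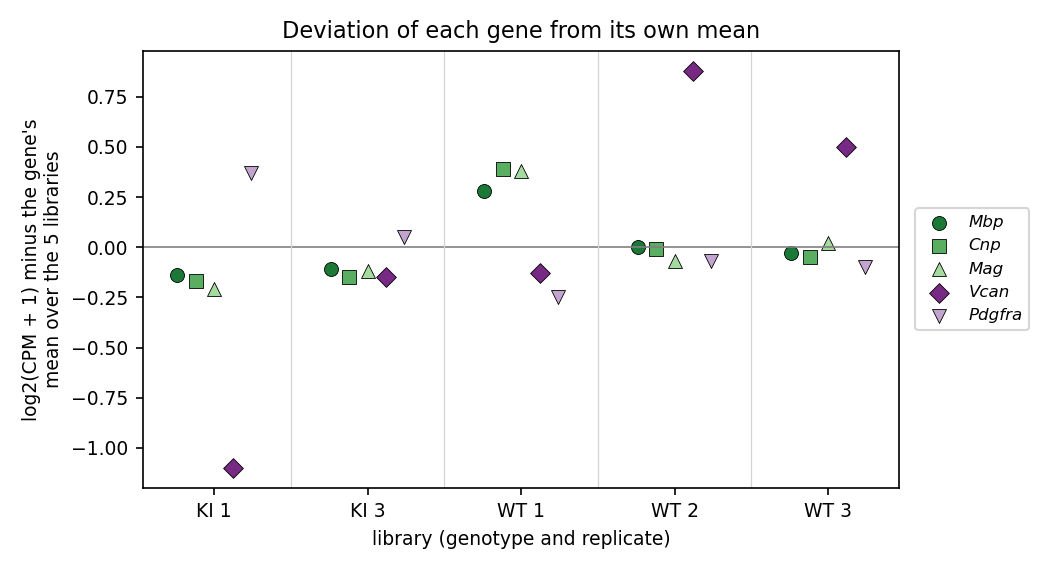
Deviation of each gene from its own mean over the 5 libraries, on the log2(CPM + 1) scale; each column is a library, KI left and WT right, and each marker is a gene. Mbp, Cnp and Mag (green) stay close together in every library and are highest in WT replicate 1; Vcan (dark purple) is apart from them in every library but KI replicate 3, and Pdgfra (light purple) is farthest from them in KI replicate 1 and WT replicate 1.

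Likeness of pattern was measured as the root mean square distance between centred log2(CPM + 1) values over the 5 libraries, among 5453 features with a single gene name and a mean of at least 10 CPM. The myelin genes lay at 0.058 (Mbp and Cnp), 0.068 (Mbp and Mag) and 0.048 (Cnp and Mag) from each other. Vcan lay 0.656 to 0.669 and Pdgfra 0.338 to 0.396 from the myelin genes, and 0.835 from each other. Of these features, 22 lay nearer to Mbp than Cnp did, and 58 nearer than Mag did. Ranked by distance from Cnp, Mag was number 3 and Mbp 10, and from Mag, Cnp ranked 6 and Mbp 25. The Mbp feature also covers Zfp236, so it is not among the 5453, and its rank is the place it would take. The 3 nearest to Mbp were Atp5l (0.032), Atp2a2 (0.033) and Cyb5b (0.033). Txn1 (0.026), Phb2 (0.031) and Mag (0.048) were nearest to Cnp. Nearest to Mag were Scfd2 (0.028), Phb2 (0.035) and Gpr37 (0.039), a receptor found in oligodendrocytes. For Vcan they were Gm12992 (0.098), Rasgrp2 (0.152) and Hs6st3 (0.181), and for Pdgfra Fbl (0.031), Gm45902 (0.032) and Oscp1 (0.051).

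Other genes of the lineage were described by 9 lists. In all, 0 of their 106 tested features beside the 5 genes passed the edgeR threshold, against 0.102% of all features, and 15 (14.2%) had an unadjusted p under 0.05 in edgeR, against 6.4%. The lists were chosen with earlier results of these data known, so the 14.2% is not independent of those results. DESeq2 gave an adjusted p for only 74 of the 106 and called 2 of them, Cntnap1 and Id4, against 134 of 6512 features in all. The same 2 of the 106 were called by limma voom, against 52 of 13665 features in all. The lists leaned in different directions: the median log2 fold change was -0.12 for myelin proteins, -0.20 for oligodendrocyte markers and 0.08 for precursor markers, beside 0.00 for all tested features. Of the 21 myelin protein features 17 were below 0 and 4 above. For oligodendrocyte markers the split was 13 below and 2 above of 15, and for precursor markers 7 below and 9 above of 16. Mobp, a gene of compact myelin, and Olig1 and Olig2, factors that specify the lineage, had no feature over their exons. Without Mbp, Cnp and Mag, the 18 remaining myelin protein features had a median of -0.11.

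Among myelin proteins, Opalin, a membrane protein of mature oligodendrocytes, had 40.1 and 33.8 CPM in KI, against 49.9, 50.7 and 55.1 CPM in WT. Its log2 fold change was -0.49 (SE 0.18, edgeR adjusted p = 0.6), and its feature also covers Tll2. Trf, the iron carrier transferrin that oligodendrocytes make, had 3034 and 3097 CPM in KI and 3729, 3110 and 3105 CPM in WT, on a feature shared with Rab6b and Srprb. Like Mbp, Trf was highest in WT replicate 1, and the other WT libraries were close to KI. Mog, a protein of the outer myelin surface, overlapped between the groups, with 106 and 105 CPM in KI and 114, 103 and 96.4 CPM in WT.

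Of the oligodendrocyte markers, Myrf, the transcription factor that switches on myelin genes, had 130 and 165 CPM in KI, against 208, 189 and 184 CPM in WT, on a feature shared with Dagla. The log2 fold change of Myrf was -0.40 (SE 0.14, edgeR adjusted p = 0.51). Gpr37 had 529 and 553 CPM in KI, against 849, 596 and 626 CPM in WT. Efnb3, an ephrin found on myelin, had 502 and 494 CPM in KI and 601, 586 and 595 CPM in WT, and there WT replicate 1 did not stand apart. Hapln2 and Bcan, of the matrix at nodes and around neurons, share a feature with 718 and 711 CPM in KI and 811, 659 and 688 CPM in WT.

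Among precursor markers, Cspg5, a chondroitin sulfate proteoglycan, had 261 and 231 CPM in KI, against 304, 294 and 312 CPM in WT (log2 fold change -0.31, SE 0.12, edgeR adjusted p = 0.614; feature shared with Elp6). Ptprz1, a receptor phosphatase with chondroitin sulfate chains, overlapped between the groups at 1087 and 1003 CPM in KI and 1125, 974 and 1052 CPM in WT. Cspg4, which encodes the NG2 proteoglycan, also overlapped, with 12.9 and 19.4 CPM in KI and 11.7, 13.8 and 15.8 CPM in WT. Lims2 was read over 32 bases shared with Myo7b, at 0.136 and 0.495 CPM in KI and 2.50, 1.60 and 4.74 CPM in WT.

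Id4, an inhibitor of lineage factors that holds back differentiation, had 413 and 362 CPM in KI, against 608, 655 and 574 CPM in WT. Its log2 fold change was -0.66 (SE 0.11), with an adjusted p of 0.0509 in edgeR, 6.4e-06 in DESeq2 and 0.0107 in limma voom, so the call depends on the test. The Id4 feature also covers the noncoding A330033J07Rik and Gm49291. Sox10, a factor needed for myelin genes, overlapped at 197 and 166 CPM in KI and 247, 177 and 142 CPM in WT, on a feature shared with Polr2f. Id2 had 458 and 508 CPM in KI and 417, 510 and 482 CPM in WT, but only 33 of its exon bases were read. For lineage factors the median log2 fold change over 11 features was -0.06.

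Lipid synthesis genes, which supply the membrane of myelin, had a median of -0.10, with 12 features below 0 and 6 above of 18. Scd1, a fatty acid desaturase, had 267 and 239 CPM in KI, against 358, 315 and 311 CPM in WT (log2 fold change -0.37, SE 0.12, edgeR adjusted p = 0.442). The related desaturase Scd2 overlapped, with 985 and 771 CPM in KI and 948, 1041 and 937 CPM in WT. The sterol enzymes Cyp51 (257 and 278 CPM in KI; 249, 383 and 364 CPM in WT) and Fdps (355 and 314 CPM in KI; 427, 301 and 291 CPM in WT) overlapped too.

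Around Pdgfra, the ligand gene Pdgfa had 46.5 and 33.8 CPM in KI, against 48.1, 47.2 and 49.0 CPM in WT (log2 fold change -0.26, SE 0.19, edgeR adjusted p = 0.962). Pdgfrb, the related receptor of pericytes, had 9.21 and 11.6 CPM in KI, against 4.20, 6.15 and 3.52 CPM in WT (log2 fold change 1.17, SE 0.43, edgeR adjusted p = 0.595). Shc1, an adaptor downstream of growth factor receptors, had 8.81 and 11.3 CPM in KI, against 20.6, 11.6 and 19.1 CPM in WT. Pik3r1, a regulatory subunit of phosphoinositide 3-kinase, and Plat, the protease that activates a PDGF ligand, had log2 fold changes of 0.02 and 0.10. Of 9 PDGF features 5 were above 0 and 4 below.

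Around Vcan, the matrix list was split with 4 features above 0 and 5 below of 9. Adamts9, a protease that cuts versican, had 10.7 and 10.6 CPM in KI, against 5.12, 4.68 and 7.19 CPM in WT (log2 fold change 0.92, SE 0.40, edgeR adjusted p = 0.741), on a feature shared with A730049H05Rik and Gm15737. Around Mag, Ngfr, a co-receptor for myelin inhibitors, had 38.3 and 26.4 CPM in KI and 27.3, 9.76 and 11.5 CPM in WT, where WT replicate 1 lay between the KI libraries. Tnfrsf19, which can stand in for Ngfr in that complex, had 27.0 and 33.8 CPM in KI, against 17.7, 24.1 and 18.2 CPM in WT. Rtn4, which encodes Nogo, had 1318 and 1300 CPM in KI and 1462, 1375 and 1346 CPM in WT, on a feature shared with Eml6. Lrp1, an endocytic receptor that binds MAG, had 886 and 886 CPM in KI, against 748, 822 and 768 CPM in WT. None of these passed the edgeR threshold.

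At the junctions of axon and myelin, Cntnap1, an axonal protein of the paranode, had 729 and 698 CPM in KI, against 937, 1161 and 1160 CPM in WT. Its log2 fold change was -0.61 (SE 0.11), with an adjusted p of 0.0672 in edgeR, 0.000104 in DESeq2 and 0.022 in limma voom. The feature also covers Ezh1, so the counts of Cntnap1 are not its own alone. Ank3, the scaffold of nodes, had 89.3 and 99.7 CPM in KI, against 77.8, 84.2 and 72.5 CPM in WT. Over its 10 features the node and paranode list had a median of 0.06 (log2 fold change).

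**Figure D4:**
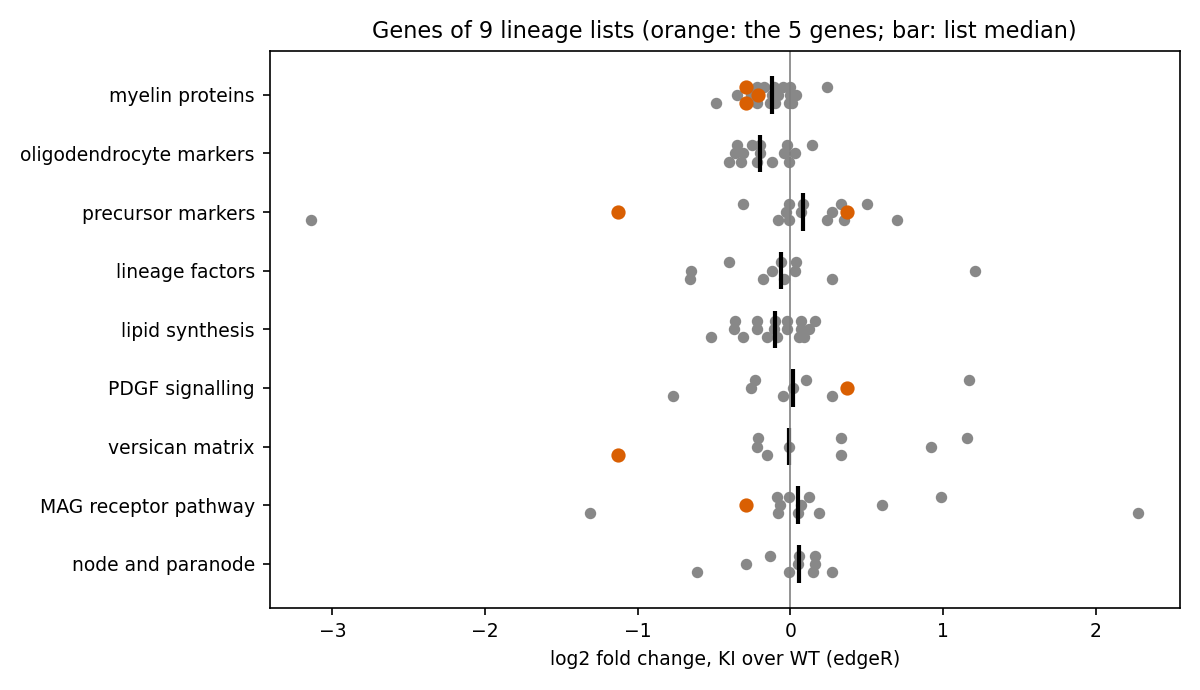
Log2 fold change, KI over WT, by edgeR, of every tested feature of 9 lineage lists; orange points are Mbp, Cnp, Mag, Vcan and Pdgfra, grey points the other genes, and black bars the list medians. The medians run from -0.20 for oligodendrocyte markers to 0.08 for precursor markers, with Vcan and Pdgfra on opposite sides of 0.

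WT replicate 1 carried much of the difference in myelin genes. It was the highest library for 13 of the 21 myelin protein features (61.9%) and 11 of the 15 oligodendrocyte markers (73.3%), but for 4 of the 16 precursor markers (25.0%) and 22.6% of all tested features. The 13 include Mbp, Cnp and Mag, and with these left out it was 10 of 18 myelin protein features (55.6%). Summed over the list, myelin proteins reached 12058 and 12055 CPM in KI and 14996, 12643 and 12549 CPM in WT. Most of this sum is Mbp (3925 to 5220 CPM) and the Trf feature (3034 to 3729 CPM). Oligodendrocyte markers summed to 2638 and 2699 CPM in KI and 3392, 2813 and 2889 CPM in WT. Precursor markers summed to 3039 and 2881 CPM in KI and 3232, 2837 and 2955 CPM in WT, where the groups overlap. The feature that Hapln2 and Bcan share, with 659 to 811 CPM, counts in both the oligodendrocyte and the precursor sum.

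**Figure D5:**
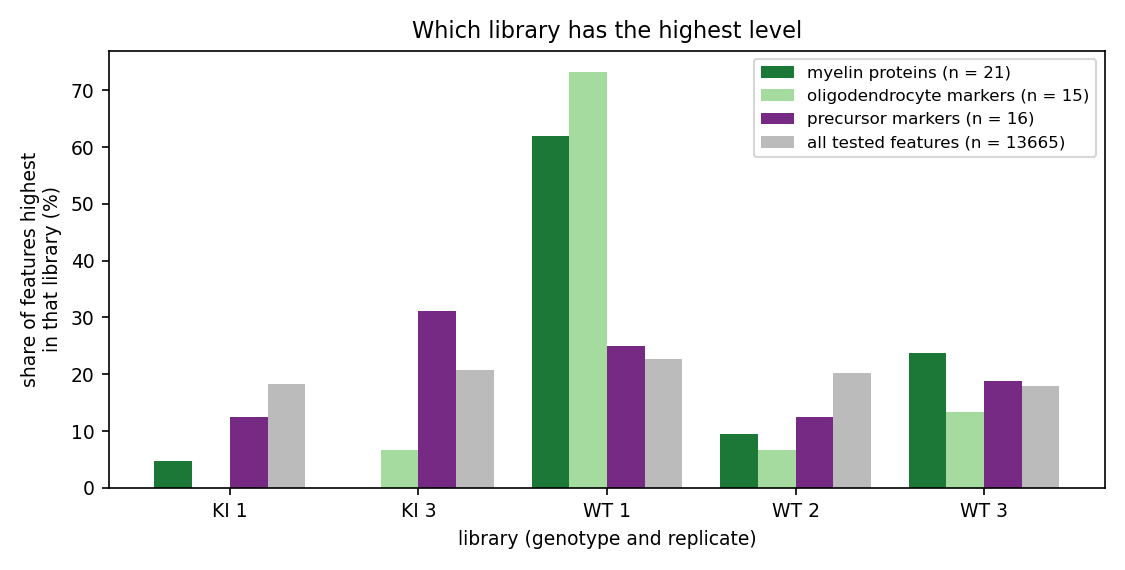
Share of features (%, axis from 0) for which each library had the highest level, for 3 lists and for all tested features. WT replicate 1 holds 61.9% of myelin proteins and 73.3% of oligodendrocyte markers, against 22.6% of all features, while precursor markers show no such peak. The myelin proteins include Mbp, Cnp and Mag, and with these left out the share is 55.6%.

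Markers of other cells and regions also differed between libraries. Summed thalamic markers (4 of 6 measured, Rora and Prkcd the highest) had 214 and 69.1 CPM in KI and 338, 114 and 78.4 CPM in WT, with WT replicate 1 the highest and KI replicate 1 next. Choroid plexus markers (5 of 8) had 322 and 2677 CPM in KI replicates 1 and 3 and 355 to 436 CPM in WT. Cortical markers (4 of 8) had 123 and 43.7 CPM in KI and 95.2 to 347 CPM in WT. Perivascular fibroblast markers (6 of 11, Ptgds and Col1a2 the highest, Igf2 at 0) had 1464 and 854 CPM in KI and 966 to 1112 CPM in WT, but this sum is mostly Ptgds, with 1335 and 778 CPM in KI and 829 to 998 CPM in WT. Without Ptgds the other 5 summed to 130 and 76.2 CPM in KI and 114 to 138 CPM in WT. KI replicate 1, the highest library for Pdgfra, was also the highest for Ptgds, Col1a2 and Dcn. The highest was KI replicate 3 for Pdgfrb, WT replicate 2 for Slc6a13 and WT replicate 3 for Col1a1. Astrocyte markers (5 of 12) had 429 and 442 CPM in KI and 417 to 475 CPM in WT, microglial markers (7 of 12) 321 and 397 CPM in KI and 355 to 404 CPM in WT, and endothelial markers (5 of 10) 199 CPM in both KI libraries and 176 to 206 CPM in WT. The part of these markers in the values of the 5 genes was not tested.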

How the data were processed

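Per the labels, libraries of striatal RNA were made with a stranded mRNA ligation kit, and genotype and replicate came from the titles. The deposited values are raw counts of fragments per gene feature. Per the file headers they were made with featureCounts 2.0.1 on an Ensembl annotation of GRCm39 without regard to strand, so reads of overlapping or antisense genes mix. GRCm39 is the build in the submitters' processing notes. Which aligner and which build the reads were aligned to is not given in the sources used here.

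Features were laid over GENCODE M21 (GRCm38) exons by position with bedtools 2.31.1, without converting coordinates. Of 53700 features, 19747 had an exon there and 16373 a single name. Counts passing filterByExpr were TMM-scaled and tested over 13665 features with edgeR 4.0.16 (quasi-likelihood, Benjamini-Hochberg, threshold 0.05) in R 4.3.3. edgeR's common coefficient of variation came to 29.8%. CPM uses TMM-scaled totals, and log2 levels add 1 CPM. Alternatives were other scaling, no filter, DESeq2 1.42.0, limma 3.58.1 voom, a replicate block, each library left out, other features and a pseudocount of 0.1. The test was first tried on simulated counts, and the outcome is not given here. With so few libraries, a difference that did not pass is not thereby shown to be absent.

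Members and lists were chosen with earlier results of these data known. Named were the 5 genes, the 2 features per lineage list with the smallest p (none passed the threshold), the 2 with the highest mean CPM, the 3 features nearest each gene in pattern and the 2 highest genes of other cell types. Mog, Cspg4, Sox10 and Pdgfa, as well as genes not covered, were added after their values were seen.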

Additional observations from a re-analysis of the deposited data

How the results depend on the processing

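Of 59 values of the 5 genes under the alternatives, 57 kept their direction and their side of the threshold. The DESeq2 value of Vcan, which had no adjusted p, is counted among the 57 as not past it. Mbp passed with a replicate block (-0.25, edgeR adjusted p = 0.0365), and over its other alternatives its log2 fold change stayed between -0.26 and -0.10. Vcan reversed to 0.42 on its second feature. Under every alternative run, the log2 fold changes of Cnp (-0.36 to -0.13) and Mag (-0.37 to -0.13) stayed negative and that of Pdgfra (0.19 to 0.52) positive. Replicate numbers do not pair these libraries by any label. Deviations of same-numbered libraries correlated at 0.135 (replicate 1) and 0.087 (replicate 3) across features, with only 2 pairs. KI replicate 1 gave -0.065 and -0.087 with WT replicates 2 and 3. KI replicate 3 gave -0.135 and 0.065 with WT replicates 1 and 2. With only 2 KI libraries, their deviations from the KI mean mirror each other, so the 2 pairs are not independent and do not settle whether replicates pair.

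The count of features past the threshold was 14, with 183 without the low-count filter, 134 with DESeq2, 52 with limma voom, 154 with the replicate block, and 2 to 161 with 1 library left out (161 without WT replicate 1, 2 without WT replicate 3, 3 without WT replicate 2, 30 without KI replicate 1, 6 without KI replicate 3). Among other lineage features the count was 0, with 1 under DESeq2's size factors, 2 each without the filter, with DESeq2 and with limma voom, 3 with the replicate block, and 0 to 4 with 1 library left out (4 without WT replicate 1: Cntnap1, Cyp51, Id4 and Ngfr). The myelin minus precursor difference of 0.09 became -0.60 without Vcan and -0.69 with the second Vcan feature, an alternative chosen after seeing the data, and -0.10 to 0.38 with 1 library left out. The causes were not tested. Mbp, Cnp and Mag had no second feature over their exons, so that alternative was not run for them. Counts of 27 to 130 per library limit Vcan.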

Other observations

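Tcf7l2, a factor that oligodendrocytes need while they differentiate and that thalamic neurons also express, had 15.4 and 2.23 CPM in KI and 30.9, 5.61 and 4.74 CPM in WT. It was chosen after its values were seen. Prkcd, a thalamic marker, had 47.6 and 9.41 CPM in KI and 90.5, 13.1 and 6.28 CPM in WT. For both genes replicate 1 of each genotype was the highest library of that genotype. For Mbp, Cnp and Mag, WT replicate 1 was the highest library and KI replicate 1 the lowest. A link between them and the thalamic markers was not tested.

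For Id4 and Cntnap1 both KI libraries lay below every WT library, an arrangement found in 11.1% of all tested features. They were lower in KI by 1.58-fold and 1.52-fold, and WT replicate 1 was not their highest library. In edgeR without WT replicate 1 both passed the threshold, in a fit where 161 of 13221 features passed. In that fit Mbp, Cnp and Mag moved nearer to 0. At the main settings, and without WT replicate 2 or 3, neither Id4 nor Cntnap1 passed. With DESeq2's size factors in edgeR, Id4 passed and Cntnap1 did not. The Id4 feature also covers A330033J07Rik and Gm49291, and the Cntnap1 feature also covers Ezh1.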
